A study of Mus musculus with 4 samples.

Results

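The cytosolic ribosomal protein genes of mouse regulatory T cells are described here, by their reads in Csnk2b-deficient and wild-type (WT) cells. The members were chosen by name: every listed feature called Rpl or Rps followed by a number and at most one of the letters a, x or l, together with Rplp0, Rplp1, Rplp2 and Rpsa, each with an exon length in the tables. The rule used no measured value and found 81 genes of 28032 features, 49 of the large 60S subunit and 32 of the small 40S subunit.

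Each ribosome holds one copy of nearly every ribosomal protein, and the ribosomal RNAs of both subunits are assembled with them in the nucleolus. The mRNAs of most of these proteins start with a run of pyrimidines, the 5′ terminal oligopyrimidine tract, through which growth signalling by mTORC1 sets their translation. Mammalian genomes also carry many processed pseudogenes of these mRNAs, so that a short read from a ribosomal protein mRNA can match several places equally well.

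Regulatory T cells (Tregs) are a class of CD4 T cells that hold back immune responses, and Foxp3 is the transcription factor that defines them. They were sorted as CD4+Foxp3+ cells from C57BL/6 mice aged 8 weeks, and their mRNA was sequenced. The Csnk2b-deficient group, with the genotype given as Csnk2b-/-, is labelled as deficient in the gene of the beta subunit of the kinase CK2, its regulatory part, and the WT group was of the same strain and age. Each genotype had 1 library of spleen Tregs and 1 library of Tregs from the tracheal lymph nodes, so n = 2 per genotype and n = 1 per genotype and tissue. The labels do not say whether a library came from a single animal or a pool, and neither the promoter nor the Cre line behind the deletion was given in the sources used here. With no statement on separate animals, p-values cannot be read as covering the spread between animals. With 1 library per genotype and tissue, a gene's own residual is only the disagreement between the 2 tissue pairs. The SEs and p-values also rest on variance shared across genes. Per the labels' protocols, libraries 1 and 2 were made with Trizol and the TruSeq RNA kit, and libraries 3 and 4 with the RNeasy micro kit, SMARTer cDNA synthesis and Nextera XT. Taken in the order of listing, the kits coincide with the tissues, so tissue and kit cannot be told apart.

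Total exon reads lay between 4737814 and 6750695 per library. Csnk2b, the targeted gene, had 148 exon reads in Csnk2b-deficient and 649 in WT spleen Tregs, and 283 in Csnk2b-deficient and 667 in WT lymph node Tregs. Its log2 fold change was -1.54 ± 0.26 (SE), and it missed the threshold with an edgeR adjusted p of 0.066. Reads of Csnk2b remained in both Csnk2b-deficient libraries. All 9 Treg and T cell markers had reads in all 4 libraries, and in CPM, reads scaled to the normalised library size, they summed to 4305 in Csnk2b-deficient and 4817 in WT spleen Tregs, and to 8802 in Csnk2b-deficient and 8999 in WT lymph node Tregs. Foxp3 itself was lower in Csnk2b-deficient cells (edgeR adjusted p = 0.038), at 374 CPM in Csnk2b-deficient and 811 CPM in WT spleen Tregs, and 123 CPM in Csnk2b-deficient and 570 CPM in WT lymph node Tregs. The 6 B cell markers summed to 1018 CPM in Csnk2b-deficient and 1016 CPM in WT spleen Tregs, and to 3420 CPM in Csnk2b-deficient and 2331 CPM in WT lymph node Tregs. Most of that sum was Ighm, the heavy chain of immunoglobulin M, at 873 CPM in Csnk2b-deficient and 954 CPM in WT spleen Tregs, and 2797 CPM in Csnk2b-deficient and 1919 CPM in WT lymph node Tregs. Cd74, the invariant chain of MHC class II, had 128 CPM in Csnk2b-deficient and 46.3 CPM in WT spleen Tregs, and 524 CPM in Csnk2b-deficient and 264 CPM in WT lymph node Tregs, a log2 fold change of 1.22 ± 0.22. It missed the threshold in edgeR (adjusted p = 0.079) and was called higher by DESeq2 and limma-voom. The 7 myeloid markers summed to 6.57 CPM in Csnk2b-deficient and 9.89 CPM in WT spleen Tregs and to 295 CPM in Csnk2b-deficient and 46.2 CPM in WT lymph node Tregs, and S100a8 and S100a9 were at 0 in all libraries. Lyz2, the lysozyme of myeloid cells, made up most of the lymph node sums, at 283 CPM in Csnk2b-deficient and 45.7 CPM in WT Tregs, and was called higher by limma-voom and not by edgeR (adjusted p = 0.298) or DESeq2. The 5 CD8 T and NK markers summed to 39.4 CPM in Csnk2b-deficient and 36.3 CPM in WT spleen Tregs and to 196 CPM in Csnk2b-deficient and 449 CPM in WT lymph node Tregs, with Ncr1 at 0. The 6 erythroid and platelet markers stayed at or below 41.8 CPM, that sum being in WT lymph node Tregs, and the 6 stromal and epithelial markers between 131 and 261 CPM. What these cells contributed to the ribosomal protein reads was not tested.

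Coding starts are shown for 3 members because the counts turn on where a read can be placed. The first 60 coding bases are printed 5′ to 3′ beside the same stretch of the processed pseudogene that shares the most 50-base words with the member (the first by name among equals), from GENCODE M21 transcripts, with a base that differs in capitals. Rpl23a and Gm10132 differ at no base, nor do Rps6 and Rps6-ps4, and Rpl4 and Gm5835 differ at G44A, counted from 1 at the A of the start codon. On GRCm38 the members lie on chromosomes 11, 4 and 9, and the pseudogenes on chromosomes 14, 2 and 1, in the order given.
Rpl23a: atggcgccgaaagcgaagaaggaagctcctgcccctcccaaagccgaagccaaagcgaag
Gm10132: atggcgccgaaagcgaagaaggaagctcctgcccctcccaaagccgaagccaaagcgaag
Rps6: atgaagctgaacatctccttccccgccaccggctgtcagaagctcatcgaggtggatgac
Rps6-ps4: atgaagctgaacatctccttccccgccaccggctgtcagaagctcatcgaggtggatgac
Rpl4: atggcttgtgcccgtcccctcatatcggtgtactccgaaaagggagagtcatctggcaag
Gm5835: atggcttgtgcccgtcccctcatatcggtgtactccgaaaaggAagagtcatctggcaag

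The start regions of 4 members are printed to show the pyrimidine tract, and they are those with the longest tract among 13 members looked at, so they do not stand for the members as a whole. Each window runs from 50 bases before the annotated start to 30 bases after it, on the gene's strand, from RefSeq on GRCm38.p6, with the longest pyrimidine run close to the start in capitals.
Rpl27a, chr7:109519145-109519224, plus strand: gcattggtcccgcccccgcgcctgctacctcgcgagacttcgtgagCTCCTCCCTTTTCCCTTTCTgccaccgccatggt
Rpl18, chr7:45718021-45718100, plus strand: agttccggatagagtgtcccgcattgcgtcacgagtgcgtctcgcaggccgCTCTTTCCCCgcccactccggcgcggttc
Rplp2, chr7:141447601-141447680, plus strand: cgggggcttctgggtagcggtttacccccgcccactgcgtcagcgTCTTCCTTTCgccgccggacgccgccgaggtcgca
Rps6, chr4:86857338-86857417, minus strand: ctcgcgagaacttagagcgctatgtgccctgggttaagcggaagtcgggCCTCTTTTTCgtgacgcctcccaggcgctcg

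RefSeq windows were matched for 60 of the 81 members. A run of at least 8 C or T on the gene's strand within 20 bases of the start was found in 29 of the 60 members (48.3%), beside 18.4% of all 27025 genes with a window. The ETS core CCGGAA was found in 33 members (55.0%) and in 16.7% of all genes, on either strand and anywhere in the 300 bases. GGGCGG, the letters of an Sp1 site, was found in 36 of the 60 members and in 38.2% of all genes. TATAAA was found in 6 members and in 15.7% of all genes, and AAGATGGC, the core of a YY1 site, in 5 members and 3.19% of all genes. These matches describe letters and not bound sites.

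Ribosomal protein genes took a smaller share of the exon reads in Csnk2b-deficient Tregs of either tissue. They held 5.29% of total exon reads in Csnk2b-deficient spleen Tregs (95% exact Clopper-Pearson interval 5.27 to 5.31) and 6.07% in WT spleen Tregs (6.06 to 6.09). In the lymph node they held 9.63% in Csnk2b-deficient Tregs (9.61 to 9.66) and 11.04% in WT Tregs (11.01 to 11.07). Csnk2b-deficient over WT, the ratio of these shares was 0.870 for the spleen pair and 0.873 for the lymph node pair. The intervals cover counting error only, not the spread between animals. Over the libraries of both tissues the share averaged 7.46 ± 3.07% in Csnk2b-deficient and 8.56 ± 3.51% in WT Tregs (SD, n = 2 each). The difference between genotypes was smaller than that between tissues, and a two-sided exact permutation test over the libraries gave p = 0.667, where 2 against 2 libraries cannot go below 0.333. That test did not keep the libraries of a tissue as a pair, so it cannot decide whether the share differs within tissues. In bulk samples, fewer cells of a type and less RNA per cell cannot be told apart.

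Among uniquely placed reads the share was smaller in every library and kept the same order. Members held 2.13% of the unique exon reads in Csnk2b-deficient and 2.46% in WT spleen Tregs, and 4.10% in Csnk2b-deficient and 4.73% in WT lymph node Tregs. Csnk2b-deficient over WT, these shares had ratios of 0.868 for the spleen pair and 0.867 for the lymph node pair. The 60S genes took 54.6% of the members' reads in Csnk2b-deficient and 53.9% in WT spleen Tregs, and 55.7% in Csnk2b-deficient and 54.8% in WT lymph node Tregs. The balance between the subunits differed by less than 1 percentage point between genotypes, with a two-sided exact permutation p of 0.667.

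**Figure D1:**
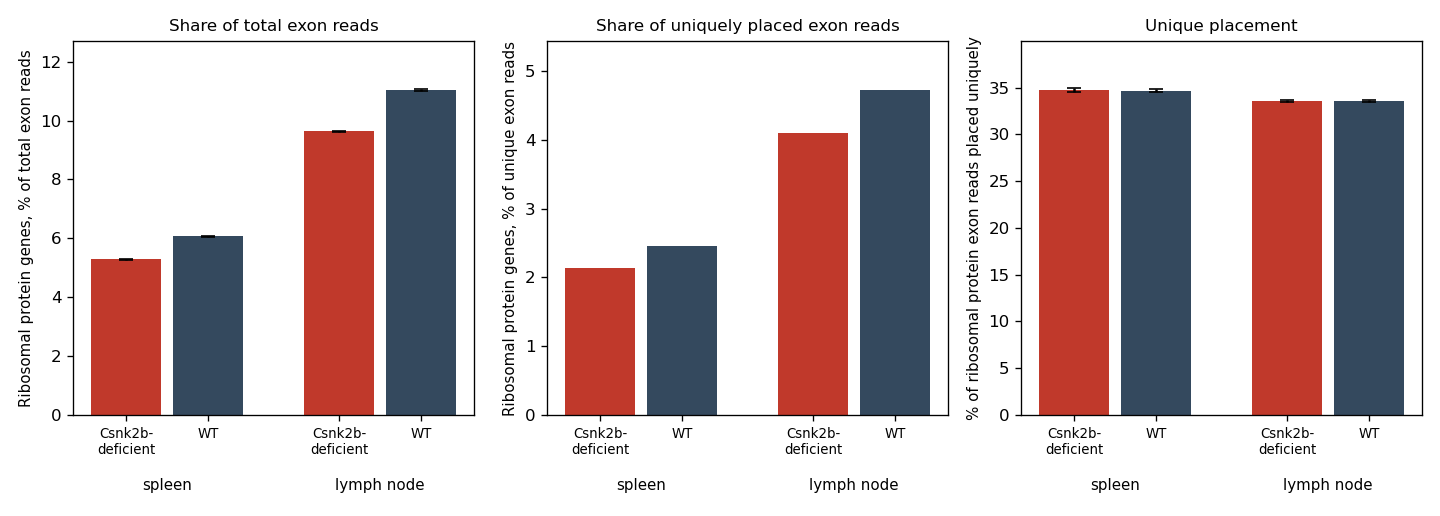
Bars show, for the 4 libraries, the percentage of total exon reads on ribosomal protein genes (left), the percentage of uniquely placed exon reads on them (middle) and the percentage of their exon reads placed uniquely (right); error bars on the left and right panels are 95% exact intervals of counting error. The Csnk2b-deficient bar is lower than the WT bar in both tissues in the left and middle panels, and the bars of each tissue in the right panel are level, at 34.7% for spleen and 33.5% for lymph node Tregs.

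About 1 read in 3 on these genes had a single placement, and for this portion the counting intervals of the 2 genotypes overlapped within each tissue. In the spleen 34.7% of the members' exon reads were unique in Csnk2b-deficient cells (34.6 to 34.9) and 34.7% in WT cells (34.5 to 34.8). In the lymph node 33.5% were unique in Csnk2b-deficient (33.4 to 33.7) and 33.5% in WT cells (33.4 to 33.7). The difference, Csnk2b-deficient minus WT, came to 0.095 percentage points for spleen Tregs and 0.0008 for lymph node Tregs. All other features together had 89.0% unique reads in both spleen libraries, and 83.7% in Csnk2b-deficient and 83.9% in WT lymph node Tregs. Reads that crossed an exon-exon junction of a member, which a spliced pseudogene copy also matches, were unique at 35.0% in each spleen library, and at 34.9% in Csnk2b-deficient and 34.3% in WT lymph node Tregs.

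The members differed widely in this respect. Of 78 members with at least 100 exon reads, 7 had 90% or more of their reads placed uniquely, 9 had 50% to under 90%, 34 had 10% to under 50%, 23 had 1% to under 10% and 5 had under 1%. Rpl4, whose protein lines the exit tunnel of the ribosome, had all of its 65779 exon reads placed uniquely, and so had Rpl8, a protein near the catalytic centre, with its 30272. Rps9 and Rps3, both of the 40S subunit, had above 99.9% unique reads, and Rpl23 had 97.2%. At the other end stood Rpl23a, a protein at the tunnel exit, with 0.182% unique reads, and Rps6, the substrate of S6 kinase, with 0.234%. Rps23 had 0.369%, Rps27 0.381%, Rpl19 0.803% and Rpl17 1.10%. Of the 30336 exon reads counted on Rps6, 71 were unique, and of the 6039 on Rpl23a 11 were.

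The printed coding starts fall at both ends of this range. Gm10132, identical to Rpl23a over the first 60 coding bases, is a feature in the tables, whereas Rps6-ps4 and Gm5835 were matched to no listed feature. Of the 81 members, 69 shared 100 or more words of 50 bases with another GENCODE M21 gene, in most cases pseudogenes, and 12 shared so many with none. Rpl21 had the most such neighbours, 41 genes of which 40 were pseudogenes, followed by Rps2 with 34. The share of a member's 50-base words found in no other gene had a median of 64.1%. Across 78 members it correlated with the share of unique reads, with Pearson's r of 0.577 and Spearman's rho of 0.582, and the points share the libraries and the same read placement. Rpl9, with 78.1% of its words found in no other gene, had 2.90% unique reads, and Rps4x, with 27.8% of such words, had 42.8%.

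**Figure D2:**
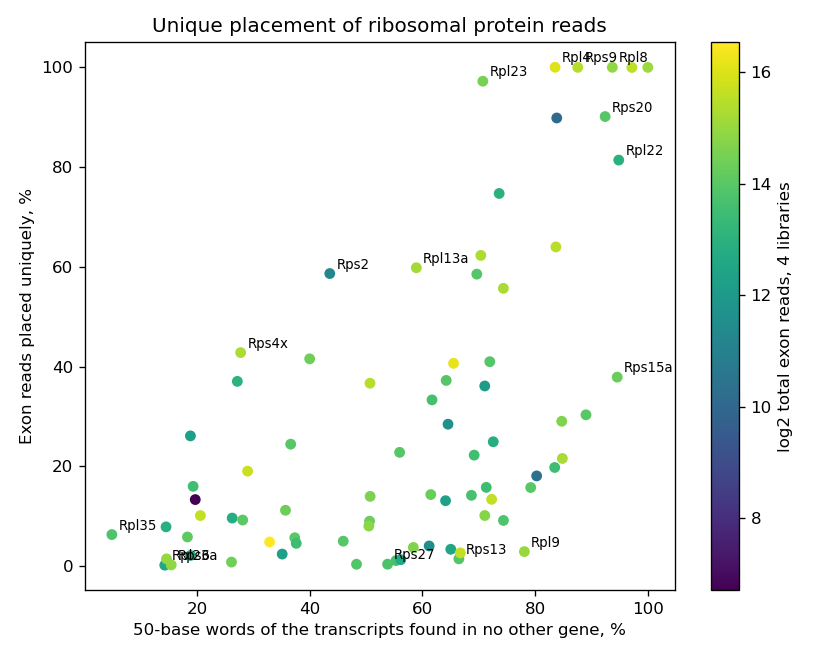
Each point is one of 78 ribosomal protein genes with at least 100 exon reads; the x axis gives the percentage of the 50-base words of its transcripts found in no other GENCODE M21 gene, the y axis the percentage of its exon reads placed uniquely over the 4 libraries, and the colour the log2 of its total exon reads. Rpl4, Rps9 and Rpl8 lie at the top right near 100% unique reads, whereas Rps13 and Rpl9 lie at the bottom with more than 65% of their words found in no other gene.

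Per member, unique placement differed between genotypes by more than 5 percentage points in 1 of 78 members in spleen Tregs and in 2 in lymph node Tregs. Csnk2b-deficient minus WT, the unique share differed by under 1 percentage point in 58 of 78 members in spleen Tregs and in 47 of 78 in lymph node Tregs. Over the 78 members the median difference was 0.14 points for spleen Tregs and -0.25 points for lymph node Tregs. It was above 0 for 48 members and below 0 for 26 in the spleen, and above for 25 and below for 51 in the lymph node. Where few reads are unique, a small difference in points can be a large one in proportion. Rpl31 in the lymph node had 2.23% in Csnk2b-deficient and 0.94% in WT Tregs. Rps2 differed by 10.6 points in the spleen, with 693 unique of 1120 reads in Csnk2b-deficient and 616 of 1201 in WT cells. Rpl35a differed by -5.65 points in the lymph node, and Rpl13, with 8 reads in Csnk2b-deficient and 2 in WT Tregs there, by 37.5 points. The 68 listed ribosomal protein pseudogene features, those named -ps, held 1241 exon reads in Csnk2b-deficient and 1942 in WT spleen Tregs, and 3083 in Csnk2b-deficient and 3317 in WT lymph node Tregs. Between 2.52% and 3.11% of these reads were unique.

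For the genotype, reads were tested with edgeR's quasi-likelihood test on tissue and genotype, over 11113 genes with Benjamini-Hochberg adjustment. Of the 81 members, 78 had enough reads to be tested, and the filter left out Rpl10l, Rpl3l and Rpl39l. None of the 78 passed the threshold of 0.05, with a smallest edgeR adjusted p of 0.89. Over all genes tested 16 passed it (0.144% called), 14 of them higher and 2 lower. At an unadjusted p under 0.05 edgeR found 6 of 78 members, all 6 lower in Csnk2b-deficient cells, where 2.2% of all genes tested were lower at that level. Among 234 other genes within the quartiles of the members' mean CPM, 14 were lower and 17 higher at that level, so abundant genes reached it more often. DESeq2 and limma-voom also called 0 members, with 6 and 8 at an unadjusted p under 0.05, all of them lower.

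The direction was shared by most members. The log2 fold change was below 0 for 66 of 78 members, beside 49.2% of all genes tested, and its median was -0.17 against 0.01 for all genes. In the spleen pair 75 of 78 members were lower in the Csnk2b-deficient library, beside 53.5% of all genes, with a median log2 ratio of -0.23 against -0.02. In the lymph node pair 46 of 78 were lower, beside 47.9% of all genes, with a median of -0.10 against 0.03. Both pairs were lower for 45 members (57.7%, beside 29.2% of all genes), both higher for 2 (beside 27.7%), and the pairs were opposite for 31 (39.7%, beside 43.1%). For 19 of the opposite members the 95% counting intervals left out 0 in both pairs, which is 24.4% of the 78 members, beside 5.59% of all genes. For 234 other genes within the quartiles of the members' mean CPM, 30.8% were lower in both pairs and 15.8% opposite with such intervals, with a median log2 fold change of 0.02. The median was -0.15 for 46 genes of the 60S and -0.18 for 32 genes of the 40S subunit. Over the summed member reads the log2 ratio was -0.22 for the spleen pair (95% counting interval -0.23 to -0.21) and -0.14 for the lymph node pair (-0.14 to -0.13).

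Among the members with the smallest p, Rps7, a 40S protein, had 755 CPM in Csnk2b-deficient and 1005 CPM in WT spleen Tregs, and 1680 CPM in Csnk2b-deficient and 2270 CPM in WT lymph node Tregs. Its log2 fold change was -0.42 ± 0.16 (SE), with log2 ratios of -0.41 for the spleen pair and -0.43 for the lymph node pair. Rpl8 had 775 CPM in Csnk2b-deficient and 1030 CPM in WT spleen Tregs, and 1774 CPM in Csnk2b-deficient and 2341 CPM in WT lymph node Tregs, a log2 fold change of -0.41 ± 0.16. On total reads both genes were lower in Csnk2b-deficient cells of either tissue by a like amount, and all reads of Rpl8 were unique. Of the reads of Rps7 8.03% were unique, and on these its log2 ratios were -0.26 for the spleen pair and -0.57 for the lymph node pair. Rpl27a, a 60S protein, had 220 CPM in Csnk2b-deficient and 312 CPM in WT spleen Tregs, and 135 CPM in Csnk2b-deficient and 191 CPM in WT lymph node Tregs. Its log2 ratios were -0.50 for the spleen pair and -0.49 for the lymph node pair, and its fold change had an SE of 0.20. Rpl6, also of the 60S subunit, had 637 CPM in Csnk2b-deficient and 748 CPM in WT spleen Tregs, and 976 CPM in Csnk2b-deficient and 1580 CPM in WT lymph node Tregs. Here the lymph node pair was the farther apart, with a log2 ratio of -0.70 beside -0.23 for the spleen pair. Rpsa, a 40S protein also known as the laminin receptor precursor, had 1329 CPM in Csnk2b-deficient and 1563 CPM in WT spleen Tregs, and 2825 CPM in Csnk2b-deficient and 4060 CPM in WT lymph node Tregs, a log2 fold change of -0.38 ± 0.16. Rps3a, of the 40S subunit, had 1235 CPM in Csnk2b-deficient and 1501 CPM in WT spleen Tregs, and 3514 CPM in Csnk2b-deficient and 4659 CPM in WT lymph node Tregs, a log2 fold change of -0.34 ± 0.15. For each of these 6 genes the Csnk2b-deficient library was the lower one in both tissues, and the levels of the tissues themselves did not overlap for any of the 6. Rpl18 had log2 ratios of -0.26 for the spleen pair and -0.45 for the lymph node pair. Each of these 7 genes had an edgeR adjusted p of 0.89. Except for Rpl8, their shares of unique reads lay between 2.64% for Rpsa and 19.0% for Rps3a.

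The stalk proteins Rplp0, Rplp1 and Rplp2, which recruit elongation factors to the 60S subunit, had values below WT in both pairs. Rplp0 had 1512 CPM in Csnk2b-deficient and 1741 CPM in WT spleen Tregs, and 5250 CPM in Csnk2b-deficient and 6525 CPM in WT lymph node Tregs, a log2 fold change of -0.26 ± 0.15. The log2 fold changes of Rplp1 and Rplp2 were -0.27 ± 0.17 and -0.26 ± 0.18. Rpl5 and Rpl11, which with 5S RNA bind Mdm2 when they are free of ribosomes, had log2 fold changes of -0.23 ± 0.16 and -0.10 ± 0.17. Rps6 had 724 CPM in Csnk2b-deficient and 911 CPM in WT spleen Tregs, and 2221 CPM in Csnk2b-deficient and 2160 CPM in WT lymph node Tregs, so that its pairs pointed in opposite directions. None of these 6 genes passed the threshold, with edgeR adjusted p between 0.89 and 0.947.

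Few members had log2 fold changes above 0, and most of those only through the lymph node pair. Rps2, near the mRNA entry channel of the 40S subunit, had 194 CPM in Csnk2b-deficient and 152 CPM in WT spleen Tregs, and 31.6 CPM in Csnk2b-deficient and 20.5 CPM in WT lymph node Tregs, a log2 fold change of 0.47 ± 0.25 (edgeR adjusted p = 0.89). Rps2 and Rps27l were the 2 members with log2 ratios above 0 in both pairs. For Rps27l the spleen ratio was 0.03, with a 95% counting interval of -0.28 to 0.33 that holds 0. Counted together with its 12 listed pseudogene copies, Rps2 had ratios of 0.25 for the spleen pair and 0.38 for the lymph node pair.

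Rpl23a stood apart. It had 1344 reads in Csnk2b-deficient and 2162 in WT spleen Tregs, but 2253 in Csnk2b-deficient and 280 in WT lymph node Tregs. Its log2 ratio was -0.24 for the spleen pair and 2.85 for the lymph node pair, so the single low library was the WT lymph node one. Its log2 fold change of 1.27 ± 0.83 had an edgeR adjusted p of 0.89. Together with 8 listed pseudogene features that share its sequence, Rpl23a had 2566 reads in Csnk2b-deficient and 753 in WT lymph node Tregs, a log2 ratio of 1.61. The 8 features alone went the other way there, with 313 reads in Csnk2b-deficient and 473 in WT lymph node Tregs. Tlcd1, whose span overlaps that of Rpl23a at chr11:77994434-77997086 (mm9), had 75 reads in Csnk2b-deficient and 166 in WT spleen Tregs, and 78 in Csnk2b-deficient and 5 in WT lymph node Tregs. The low count of the WT lymph node library was thus seen for both features, and what part overlapping reads had in it was not tested.

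Rpl41, the smallest of the proteins, had 535 CPM in Csnk2b-deficient and 595 CPM in WT spleen Tregs, and 2633 CPM in Csnk2b-deficient and 1846 CPM in WT lymph node Tregs. Rpl41, Rps23, Rpl27, Rpl39 and Rpl36a had log2 fold changes of 0.06 to 0.18, each with a ratio below 0 for the spleen pair and above 0 for the lymph node pair. None of them passed the threshold.

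**Figure D3:**
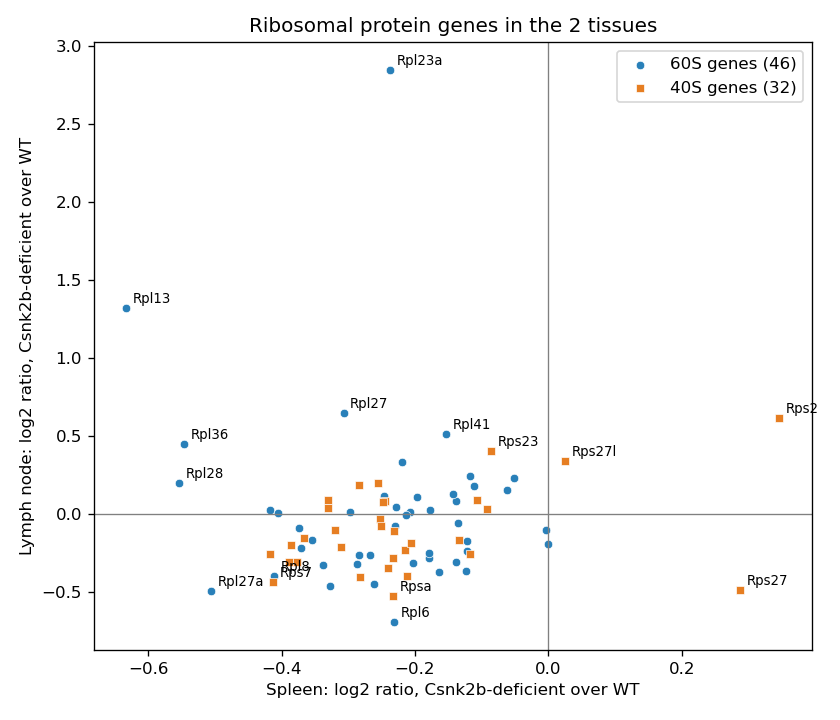
Each point is one of 78 tested ribosomal protein genes, with the log2 ratio of Csnk2b-deficient over WT in the spleen on the x axis and in the lymph node on the y axis; circles are 60S and squares 40S genes. Most points lie left of 0 on the x axis, 45 of them also below 0 on the y axis; Rpl23a stands alone at the top, and only Rps2, Rps27l and Rps27 lie right of 0.

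The 2 pairs did not order the members alike. Across 78 members the spleen and lymph node ratios had a Pearson's r of 0.0048 and a Spearman's rho of 0.165, and without Rpl23a an r of 0.011. The points share the libraries of their tissue.

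On uniquely placed reads, 76 members were tested among 10568 genes, Rpl23a and Rpl13 having too few. edgeR called 0 of them (0.0662% called over all genes), with a smallest adjusted p of 0.9 and 1 member, Rpl8, lower at an unadjusted p under 0.05 (beside 1.8% of all genes). The median log2 fold change was -0.20, beside 0.01 for all genes, with -0.21 for the spleen pair and -0.17 for the lymph node pair. Of the 76 members, 46 were lower in both pairs (60.5%, beside 29.3% of all genes) and 6 were higher in both (beside 27.8%). The log2 fold changes on total and on unique reads had a Pearson's r of 0.588 and a Spearman's rho of 0.707 across the 76 members, which rest in part on the same reads. The 7 members with at least 90% unique reads, for which both counts are nearly the same reads, had a median of -0.17, and 6 of the 7 were lower in both pairs. The 28 members with under 10% unique reads had a median of -0.15.

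For 4 members the 2 counts differed by more than 0.5 on the log2 scale. Rpl31 had log2 fold changes of -0.20 on total and 0.80 on unique reads, with 20 unique reads in Csnk2b-deficient and 21 in WT spleen Tregs, and 29 in Csnk2b-deficient and 11 in WT lymph node Tregs. In the same order, Rpl17 had -0.10 and -0.76, Rpl5 had -0.23 and 0.32, and Rps12 had -0.08 and 0.45. Each had under 2.5% unique reads, and none of these values passed the threshold in either count.

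**Figure D4:**
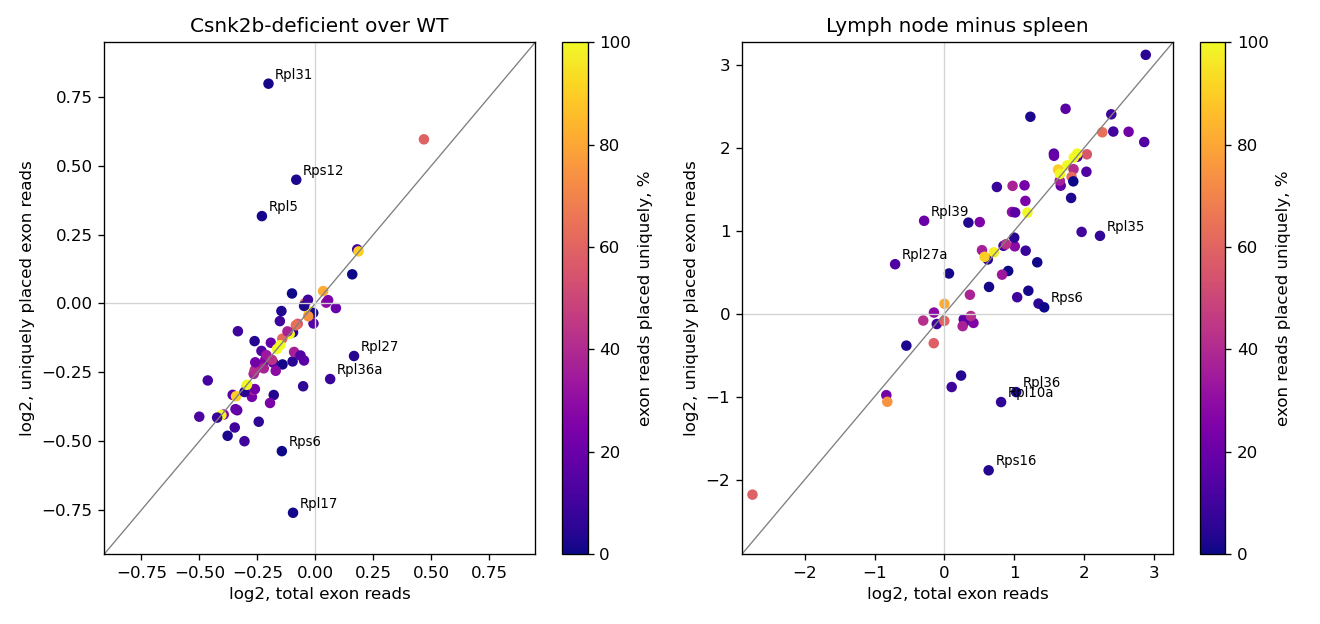
Each point is one of 76 members tested in both counts, with the log2 difference on total exon reads on the x axis and on uniquely placed exon reads on the y axis; the left panel is Csnk2b-deficient over WT, the right panel lymph node minus spleen, the line marks equality and the colour gives the percentage of reads placed uniquely. Members with over 80% unique reads lie on or close to the line in both panels. Rpl31 and Rpl17 on the left and Rps16 on the right, each with under 5%, lie farthest from it. On the right, Rpl10a (5.68%), Rpl27a (13.1%) and Rpl39 (19.8%) lie far from it too.

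Between tissues the members differed far more than between genotypes. Lymph node minus spleen, 52 of 78 members were called higher by edgeR (beside 23.3% of all genes) and 4 lower (beside 22.2%), with a median log2 difference of 0.99 against -0.17 over all genes. Among the 234 other genes within the quartiles of the members' CPM, 152 were higher and the median was 1.09. Rpl3, a protein near the catalytic centre, had 8464 CPM in Csnk2b-deficient and 9661 CPM in WT lymph node Tregs, against 1223 CPM in Csnk2b-deficient and 1224 CPM in WT spleen Tregs. Its log2 difference was 2.89 ± 0.16 (edgeR adjusted p = 1.2e-06), the highest of the members. Rps19 differed by 2.64, Rps18 by 2.42 and Rpl15 by 2.39.

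The 4 members lower in the lymph node were Rps2, Rps10, Rps21 and Rpl27a. Rps2, at 31.6 CPM in Csnk2b-deficient and 20.5 CPM in WT lymph node Tregs against 194 CPM in Csnk2b-deficient and 152 CPM in WT spleen Tregs, had a log2 difference of -2.75 ± 0.26 (edgeR adjusted p = 1.3e-05). Its 12 listed pseudogene copies held between 4 and 90 reads per library. Rps10 differed by -0.83, Rps21 by -0.82 and Rpl27a by -0.71. On unique reads 39 members were higher (beside 22.5% of all genes) and 6 lower (beside 21.2%), with a median of 0.83. Rpl27a then differed by 0.60 and did not pass, with an edgeR adjusted p of 0.171. Rps16 differed by -1.89 on unique against 0.63 on total reads, and Rpl10a by -1.06 against 0.81. Both Rps16 and Rpl10a were called higher on total reads and lower on unique reads. Whether these differences belong to the tissue or to the kit cannot be told apart.

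By level per kilobase of exon, the 6 highest members included Rpl32, Rpl3, Rps3a, Rpl4 and Rplp0. The level of these 5, as RPKM over total exon reads, averaged between 2081 for Rplp0 and 3550 for Rpl32 over the 4 libraries. Rpl32 had 1697 in Csnk2b-deficient and 1892 in WT spleen Tregs, and 5242 in Csnk2b-deficient and 5367 in WT lymph node Tregs, so that the libraries of the tissues did not overlap. The median level of the 81 members was 384 in Csnk2b-deficient and 423 in WT spleen Tregs, and 594 in Csnk2b-deficient and 615 in WT lymph node Tregs. The lowest detected members were Rpl39l, at a mean of 0.484, Rpl13, at 1.88, Rpl21, at 17.9, and Rpl35a, at 57.2. Exon lengths in the tables ran between 345 for Rps27 and 6262 for Rps15a, and each level is divided by its gene's length. These lengths appear to join all listed transcripts of a gene, so a level can be low because the listed length is long. Rpl35a had 4431 exon reads over a length of 3526, and Rpl21 had 1311 over 3400. Levels on the lengths of the transcripts in these cells were not tested.

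Rpl13, a common 60S protein, had 30 exon reads in Csnk2b-deficient and 65 in WT spleen Tregs, and 8 in Csnk2b-deficient and 2 in WT lymph node Tregs, the fewest of the 78 tested members. Gm20388, a feature whose span overlaps that of Rpl13, had 469 reads in Csnk2b-deficient and 676 in WT spleen Tregs, and 97 in Csnk2b-deficient and 82 in WT lymph node Tregs. None of the reads on Gm20388 were unique, and how reads were divided between the overlapping features was not tested. The 2 listed pseudogene features that share Rpl13's sequence had 580 reads in Csnk2b-deficient and 906 in WT spleen Tregs. In lymph node Tregs they had 230 in Csnk2b-deficient and 71 in WT. Of the reads on Rpl13 and these copies, 94.5% lay on the copies, the largest such share of any member, so Rpl13's low count cannot be read as its level.

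The 4 members named as like another one differed in whether they were detected. Rpl3l, known from striated muscle, and Rpl10l, known from testis, had 0 reads in all 4 libraries, which allows at most 0.444 to 0.633 CPM of unscaled total exon reads. Rpl39l, also known from testis, had 0 reads in both Csnk2b-deficient libraries and 8 and 2 reads in the WT spleen and lymph node libraries. With 8 reads as the highest count, no change can be read from it. Their common forms were abundant: Rpl3 had 7070 reads or more, Rpl10 1150 or more and Rpl39 1701 or more in each library. Rps27l, a paralog of Rps27 that p53 induces, was detected in all 4 libraries, at 27.5 CPM in Csnk2b-deficient and 27.0 CPM in WT spleen Tregs, and 94.9 CPM in Csnk2b-deficient and 75.04 CPM in WT lymph node Tregs. With 89.8% unique reads it was counted apart from Rps27, which had 343 CPM in Csnk2b-deficient and 281 CPM in WT spleen Tregs, and 945 CPM in Csnk2b-deficient and 1323 CPM in WT lymph node Tregs.

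Other genes of protein synthesis were read beside the members. Of 6 translation elongation factors 0 were called by edgeR and the median log2 fold change was 0.01, with 1 at an unadjusted p under 0.05, Eef1g (-0.37 ± 0.17). Of 29 initiation factors 0 were called, with a median of -0.14 and 2 at that level, Eif3f (-0.61 ± 0.22) and Eif3j (-0.84 ± 0.35). Of 15 tested genes outside the ribosome that are known or thought to carry pyrimidine tracts, 0 were called, 9 lay below WT in both pairs, and their median was -0.11, with 1 at an unadjusted p under 0.05. Gnb2l1, which encodes the 40S-bound Rack1, had a log2 fold change of -0.23 ± 0.16. The median of 39 ribosome biogenesis factors was -0.02, with 0 called and 0 at an unadjusted p under 0.05. The median of 10 ribosomal protein chaperones and related factors was -0.07, with 0 called and 0 at that level. DESeq2 and limma-voom also called 0 genes of each of these lists.

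Of 19 genes of the path from mTORC1 and Myc to the ribosome, 0 were called by edgeR, DESeq2 or limma-voom, 2 had an unadjusted edgeR p under 0.05, and the median was -0.12. Among 12 tested genes of the p53 response, which free Rpl5 and Rpl11 can set off by binding Mdm2, 1 was called lower and 0 higher, and the median was 0.09. The called gene was Sesn1, a repressor of mTORC1 signalling that is also a target of FoxO factors. It had 90.5 CPM in Csnk2b-deficient and 261 CPM in WT spleen Tregs, and 65.6 CPM in Csnk2b-deficient and 249 CPM in WT lymph node Tregs, a log2 fold change of -1.72 ± 0.23 (edgeR adjusted p = 0.012). The catalytic CK2 subunits differed by -0.17 ± 0.22 for Csnk2a1 and -0.41 ± 0.40 for Csnk2a2 on the log2 scale, and neither passed the threshold.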

How the data were processed

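Tregs of 2 genotypes and 2 tissues gave 4 libraries. The submitters' processing notes name CASAVA 1.8.2 and mm9; aligner, annotation and use of strand were not given in the sources used here. As deposited, the tables hold counts of exon reads per feature, total and unique, per the file headers. Features without an exon length (9551 of 37583, none with exon reads) were dropped. Members and gene lists were chosen with earlier results of these data known.

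Total exon reads were tested with edgeR 4.0.16 (R 4.3.3): low genes were filtered with filterByExpr, libraries were scaled by TMM, and a robust quasi-likelihood fit on tissue plus genotype was adjusted by Benjamini-Hochberg at a threshold of 0.05, with 1 residual degree of freedom. SEs are from that fit and lean on variance shared across genes (median prior degrees of freedom 10.1), not on replicate libraries. Uniquely placed reads had a fit of their own. The replicate number names the tissue, which served as the block. Within a number, the libraries' deviations from their genotype's mean had a correlation of 0.783 over 11113 genes. With 2 libraries per genotype, this value only restates the difference of tissue, and of kit as listed, and is no check of a pairing. CPM are counts scaled to the TMM library size, and pair ratios are log2 CPM (prior count 2) of Csnk2b-deficient minus WT. Levels per kilobase used the deposited exon lengths and total exon reads. Words of 50 bases were compared over GENCODE M21 transcripts. The fit was tested on simulated data. The planted changes were larger than any member's and the spread smaller than that fitted here, so the test does not bear on changes of the members' size.

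Named members were the 8 lower and 8 higher with the smallest p, the 6 with the highest and lowest unique share and level, the 5 with the highest and lowest called tissue difference, those whose counts differed by over 0.5, and a fixed set (stalk genes, Rpsa, Rps6, Rpl5, Rpl11 and paralogs); others were named after their values were seen, and some genes that the rule names are not reported here. Alternatives were other scalings and filters, DESeq2 1.42.0, limma 3.58.1 (voom), no block, and single pairs. Overlapping features and near-identical copies are uncertain.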

Additional observations from a re-analysis of the deposited data

Results flagged for a closer look

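The genotype ratios of 19 of 78 tested members were of opposite sign in the 2 tissues, with 95% counting intervals that left out 0 in both (24.4%, beside 5.59% of all genes tested and 15.8% of 234 other genes within the quartiles of the members' CPM), and 7 of these differed by at least 0.5 on the log2 scale. The difference between the tissues was not tested, since each pair is 1 library against 1. In the order lymph node, then spleen, the log2 ratios of Csnk2b-deficient over WT were 2.85 and -0.24 for Rpl23a. They were 0.65 and -0.31 for Rpl27. Rpl36 had 0.45 and -0.55, and Rpl28 had 0.20 and -0.55. For Rpl41 they were 0.51 and -0.15, and for Rpl38 0.33 and -0.22. Rps27 was the one of the 7 with the reverse order, at -0.49 in the lymph node and 0.29 in the spleen. On uniquely placed reads, 4 of the 6 that were tested had opposite signs again. In the same order, the unique ratios were 0.49 and -0.10 for Rpl41, 0.13 and -0.11 for Rpl38, 0.24 and -0.24 for Rpl36, and -0.84 and 0.86 for Rps27. Rpl27, with -0.06 and -0.29, and Rpl28, with -0.02 and -0.62, then had the same sign in both tissues, and Rpl23a had too few unique reads. The unique reads of Rps27, Rpl27, Rpl36 and Rpl28 numbered 53, 117, 145 and 192 over the 4 libraries.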

How the results depend on the processing

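No member was called by genotype under any scaling, filter, tool or count run, and the median log2 fold change over members stayed between -0.21 and -0.14. Without the replicate block the median was -0.16 and edgeR called 0 members, and 0 genes higher and 0 lower in all. Within 1 pair no degrees of freedom remain, so it gave no test and no count of called genes; its medians were -0.23 (spleen alone) and -0.10 (lymph node alone) on total reads, and -0.21 and -0.17 on unique reads. Members with at least 90% unique reads had a median of -0.17 and those with under 10% one of -0.15, a split made after seeing the data.

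Over all genes, 14 higher and 2 lower were called. Size factors by the median of ratios gave 4 higher and 0 lower, upper-quartile scaling and a filter at 5 CPM 1 lower each, no filter except 0 reads 79 and 32, unique reads 7 and 0, DESeq2 38 and 16, and limma-voom 39 and 21. On library totals with no factors, the summed member ratio was -0.20 for both pairs. The tissue median fell to 0.83 on unique reads, and Rps16 and Rpl10a were then called lower in the lymph node instead of higher.

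In the order Csnk2b-deficient spleen, WT spleen, Csnk2b-deficient lymph node and WT lymph node, the share of unique exon reads on members was 2.13%, 2.46%, 4.10% and 4.73%. The unique share was 35.4%, 35.3%, 33.8% and 33.7% over gene reads, and 16.7%, 16.4%, 18.3% and 19.4% as a median over members. The median level per kilobase on unique reads was 53.7, 62.3, 62.5 and 85.6.

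On unique reads some members, none called, changed sign: Rpl27 to -0.19, Rpl31 to 0.80, Rpl36a to -0.27, Rpl39 to -0.017, Rpl5 to 0.32, Rps12 to 0.45 and Rps27 to 0.036. Rps18 went from -0.032 on total to 0.013 on unique reads, and Rpl13a from -0.046 to 0.00037. The cause was not tested. Csnk2b passed the threshold without a filter, with DESeq2 and with limma-voom. Depth limits members with few unique reads.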
